A study of Mus musculus with 2 samples.

Results

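The CCN proteins are a family of secreted matricellular proteins, which sit in the extracellular matrix and signal to cells more than they bear load. The members described here are Ccn1, Ccn2, Ccn3, Ccn4 and Ccn5, listed in older annotations as Cyr61, Ctgf, Nov, Wisp1 and Wisp2. They were taken as every array probe set, a group of probes for 1 transcript, whose only platform gene symbol was one of these 5 names. This gave 10 probe sets for 5 genes, of 45101 probe sets and 18193 named genes on the array.

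Messenger RNA was measured on 2 Affymetrix arrays, 1 for each group. The miR-140 KO array held RNA of cultured rib chondrocytes, which are cartilage-forming cells, from mice aged 5 days that lacked the microRNA miR-140. The WT array held RNA of wild-type rib chondrocytes cultured from mice of the same age. The strain label of both samples lists C57BL/6 and CBA, and the study set out to find messenger RNAs that miR-140 may target. Which part of the locus was deleted, whether the deletion was limited to a cell type, and how many mice gave each culture are not given in the sources used here. With 1 array in each group there is no spread between cultures. The values below therefore describe this pair of arrays, with no test and no replicate check.

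CCN proteins are built from shared modules that resemble insulin-like growth factor binding proteins, von Willebrand factor type C repeats and thrombospondin repeats, followed in most members by a cystine knot, which Ccn5 lacks. They act on cells through integrins and heparan sulphate proteoglycans, and they bind growth factors and matrix proteins. In cartilage Ccn2 is known to promote chondrocyte growth and matrix production, and Ccn3 has been described with actions on chondrocytes that oppose those of Ccn2. Ccn1 and Ccn2 are also textbook targets of the YAP and TAZ coactivators, which bind DNA through TEAD factors.

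MicroRNAs repress messenger RNAs by pairing of their seed, bases 2 to 8, with the target. The RefSeq table (GRCm38.p6) held 1 mature strand of miR-140, the 3p strand, at chr8:107551288-107551308 on the plus strand. It is shown because it is a product of the deleted gene, first alone with the seed in capitals and then within its hairpin precursor, chr8:107551244-107551313 on the plus strand, with the mature strand in capitals.
mmu-miR-140-3p: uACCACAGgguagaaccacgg
Mir140 hairpin: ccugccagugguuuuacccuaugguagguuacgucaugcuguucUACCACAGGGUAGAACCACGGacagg
The array has no probe set for these strands, and no messenger RNA was searched for seed matches here.

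Values are on the log2 scale, as deposited by the authors after RMA (Robust Multichip Average) processing, and each difference is the miR-140 KO signal minus the WT signal. Signals of different probe sets are not comparable as levels, so the order of the 5 genes is given for differences only. A gene was compared when the higher of its log2 signals reached a floor of 7, using its probe set with the highest mean signal. This left 9897 genes, and all 10 CCN probe sets lay above the floor, the lowest signal among them being 8.45. Across the genes compared the median difference was -0.05, and the central 95% lay between -0.69 and 0.47. Of 19 chondrocyte marker genes, 17 had a signal above the floor in the miR-140 KO array and 18 in the WT array. Matn1 lay below it in both, and Col9a2 passed through the WT array alone. The 18 genes compared were all lower in the miR-140 KO array, with a median of -2.05.

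**Figure D1:**
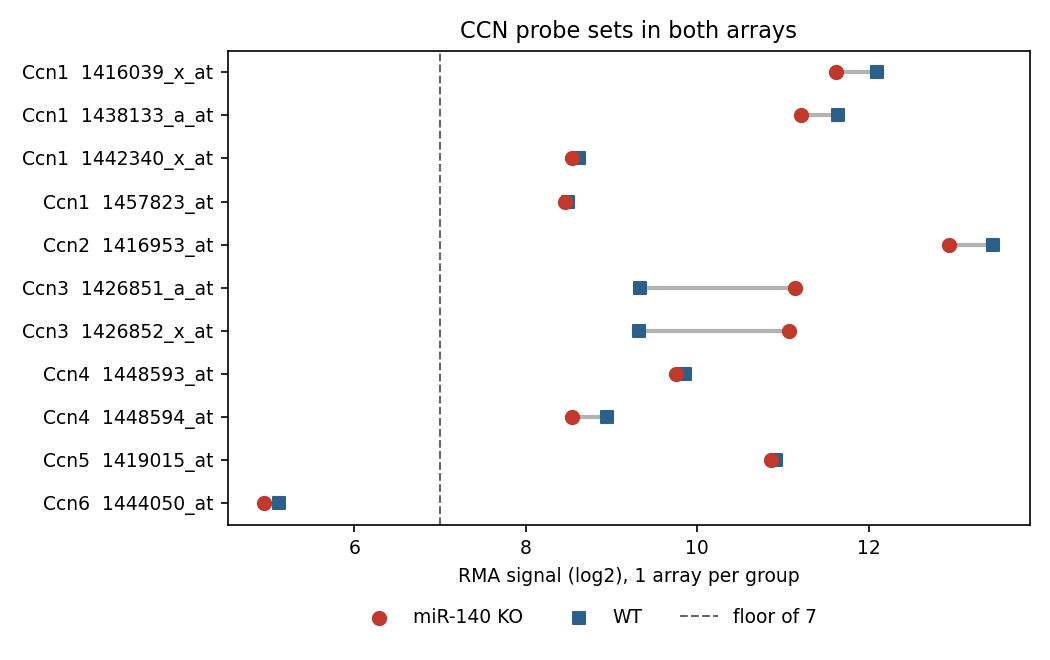
The log2 RMA signal of each CCN probe set is plotted for the miR-140 KO array (red circles) and the WT array (blue squares), with the floor of 7 as a dashed line and 1 array per group. Both Ccn3 probe sets had higher signal in the miR-140 KO array (11.14 and 11.07, against 9.33 and 9.32 in WT), all other probe sets of the 5 genes were slightly or moderately lower there, and Ccn6 lay under the floor in both arrays.

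Ccn3 stood apart from the other 4 members. Its messenger RNA was about 3.5-fold higher in the miR-140 KO array, whereas Ccn2 and Ccn1 were about 1.4-fold lower and Ccn4 and Ccn5 differed by little with their brightest probe sets. At least 2-fold higher signal was found for 1 of the 5 genes, where 0.475% of all genes compared were that much higher, and for 2 of the 10 probe sets, where 0.894% of all probe sets above the floor were. None of the 5 genes was at least 2-fold lower (1.22% of all genes compared), and none of the 10 probe sets was (1.07%). At 1.5-fold, Ccn3 was still the 1 gene past the threshold upwards (1.56% of all genes) and none passed it downwards (3.56%), and the same held for the probe sets, of which both for Ccn3 passed upwards (3.3% of all probe sets above the floor) and none downwards (3.17%). Of the 5 genes, 4 were lower in the miR-140 KO array, a direction shared by 59.2% of all genes compared.

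Ccn3 (Nov, Entrez gene 18133, chromosome 15) encodes the family member found over-expressed in nephroblastoma, a secreted ligand of integrins and of Notch1. Its probe set 1426851_a_at read 11.14 in the miR-140 KO array and 9.33 in the WT array. The difference of 1.81 is a 3.50-fold higher signal in the miR-140 KO array. The second probe set, 1426852_x_at, read 11.07 in the miR-140 KO array and 9.32 in the WT array, a difference of 1.75 or 3.36-fold. Both probe sets were designed on the same database sequence, and their suffixes mark designs that may also bind related transcripts, so they are not independent readings of the gene.

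Among the 9897 genes compared, 6 had a larger positive difference than Ccn3, which ranked 7 from the top. Of 1342 genes with a mean signal within 0.5 of its own, 2 had a larger positive difference (0.149%). Ccn3 had no other gene within 0.1 of its difference. The nearest genes of like signal were Ndnf (1.37), Serpinb1a (1.25) and Kitl (1.11), all with smaller differences, so no gene of like signal closely matched its pattern over these 2 arrays.

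Other values moved with this difference between the same arrays. Of 15 fibroblast and perichondrium markers compared, 12 were higher and 3 lower in the miR-140 KO array, with a median of 0.27. The share lower was 20%, against 59.2% of all genes compared. Farthest from 0 were Col3a1 (1.38), Postn (-1.26), Fap (1.23) and Lum (0.96), so Postn went against the rest. The summed linear signal of all 20 listed markers was 46959 in the miR-140 KO array and 38544 in the WT array. Thy1, Dpt, Cd34, Pi16 and Mfap5 lay below the floor. The summed linear signal of the 19 chondrocyte markers was 21598 in the miR-140 KO array and 82663 in the WT array. Both sums include genes below the floor and are weighted towards the brightest probe sets, so they measure neither a shift of the whole list nor a share of cells. Xist, transcribed from the inactive X chromosome, was higher by 5.49 and 3.59 with its 2 probe sets above the floor, and the Y-linked genes Eif2s3y and Uty reached differences of -4.68 and -4.30, so the sex of the mice, or the proportions of the sexes, also differed between the cultures. Wwp2, the host gene of miR-140, was also lower in the miR-140 KO array. Its probe set above the floor in both arrays read 7.13 in the miR-140 KO array and 9.65 in the WT array (-2.52). Its other probe sets, all below the floor in the miR-140 KO array, differed by -4.50 to -0.15. The part of these shifts in the Ccn3 difference was not tested. In cultured cells of mixed makeup, fewer cells of a type and less RNA per cell cannot be told apart, which holds for every value here.

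**Figure D2:**
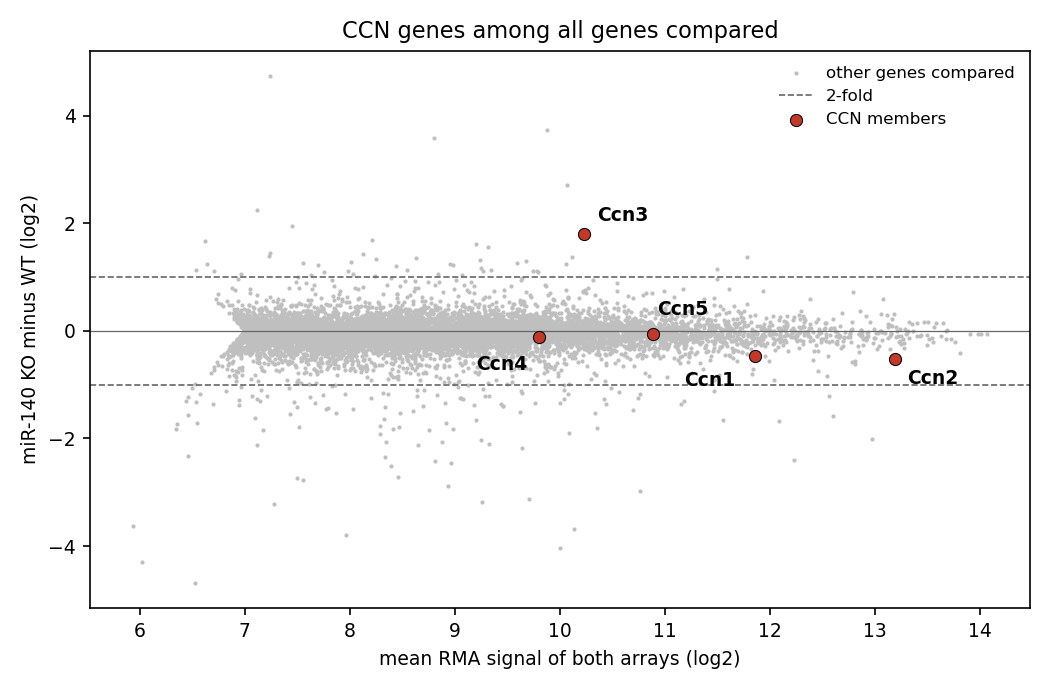
Each point is a gene, with the mean log2 signal of both arrays on the x axis and the difference, miR-140 KO minus WT, on the y axis. Grey points are the other genes compared, red points the CCN genes, and dashed lines mark 2-fold. Ccn3 (1.81) lies above the upper line, while Ccn1 (-0.47), Ccn2 (-0.51), Ccn4 (-0.11) and Ccn5 (-0.06) lie between the lines.

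Ccn2 (Ctgf, Entrez gene 14219, chromosome 10) encodes connective tissue growth factor, which is needed for normal growth plates in mice. Its single probe set, 1416953_at, read 12.94 in the miR-140 KO array and 13.45 in the WT array. The difference of -0.51 is a 1.43-fold lower signal. Over all genes compared, 4.42% had a lower difference. Of 106 genes with a mean signal within 0.5 of its own, 4 did (3.77%). Of 232 probe sets of like signal above the floor, 5 were as low or lower, its own included (2.16%). Their 2.5th percentile was -0.45. Ccn2 thus lay at the lower edge for bright genes without being the lowest. There were 371 other genes within 0.1 of its difference, and the nearest of like signal were Cpe (-0.57), Plagl1 (-0.58) and Ccdc80 (-0.62).

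Ccn1 (Cyr61, Entrez gene 16007, chromosome 3) encodes an immediate early, integrin-binding protein that promotes chondrogenesis in mouse limb mesenchyme. It was measured by 4 probe sets, which fell into a bright pair and a dim pair. The brightest, 1416039_x_at, read 11.62 in the miR-140 KO array and 12.09 in the WT array, a difference of -0.47 or 1.39-fold lower. Probe set 1438133_a_at read 11.20 in the miR-140 KO array and 11.65 in the WT array, a difference of -0.44.

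The dim pair of Ccn1 probe sets, both designed on 1 expressed sequence tag, hardly differed between the arrays. Probe set 1442340_x_at read 8.54 in the miR-140 KO array and 8.62 in the WT array, a difference of -0.074. Probe set 1457823_at read 8.45 in the miR-140 KO array and 8.49 in the WT array, a difference of -0.039. All 4 probe sets were lower in the miR-140 KO array, but the size of the difference depends on which is used. The bright pair and 1442340_x_at carry suffixes of designs that may also bind related transcripts, whereas 1457823_at does not. For comparison, the pooled SD of differences among probe sets of the same gene was 0.27 over 3838 genes with several probe sets above the floor.

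By its brightest probe set, Ccn1 stood below 94.9% of genes compared. Of 363 genes of like signal, 14 had a lower difference (3.86%). There were 483 other genes within 0.1 of its difference. The nearest of like signal were Prss23 (-0.47), Cmpk1 (-0.47) and Acta2 (-0.46), the last of which encodes smooth muscle actin. The differences of Ccn1 and Ccn2 were 0.04 apart, which is less than the spread among probe sets of a gene.

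Ccn4 (Wisp1, Entrez gene 22402, chromosome 15) encodes a Wnt1-inducible protein of osteoblast precursors and perichondrium. Its probe set 1448593_at read 9.75 in the miR-140 KO array and 9.86 in the WT array, a difference of -0.11. The other, 1448594_at, read 8.54 in the miR-140 KO array and 8.94 in the WT array, a difference of -0.40 or 1.32-fold lower. Both were lower in the miR-140 KO array, and 3581 other genes lay within 0.1 of the first difference, among them Maea, Klhl5 and Eri3, each at -0.11.

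Ccn5 (Wisp2, Entrez gene 22403, chromosome 2) encodes the member without a cystine knot, known to restrain growth of smooth muscle cells. Its single probe set, 1419015_at, read 10.85 in the miR-140 KO array and 10.92 in the WT array. The difference of -0.06 lay close to the median of all genes, with 52.8% of genes above it and 3822 other genes within 0.1. Impact, Col6a3 and Dhx9 were the nearest of like signal, each at -0.06. Ccn6 (Wisp3), the remaining family member, read 4.95 in the miR-140 KO array and 5.13 in the WT array, both below the floor, so no direction is given for it.

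In order of their differences the members ran Ccn3, Ccn5, Ccn4, Ccn1 and Ccn2. The step from Ccn3 to Ccn5 was 1.87. Ccn5 and Ccn4 were 0.05 apart, and Ccn1 and Ccn2 0.04 apart, steps smaller than the spread of 0.27 among probe sets of a gene. Ccn4 and Ccn1 were 0.37 apart by their brightest probe sets, but the probe sets of both genes overlapped in their differences. The gap between Ccn3 and Ccn2, the pair with opposed actions in cartilage, was 2.32 with the brighter Ccn3 probe set and 2.26 with the other. Against the 4 Ccn1 probe sets, the gap of the 2 Ccn3 probe sets ran from 1.79 to 2.28.

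**Figure D3:**
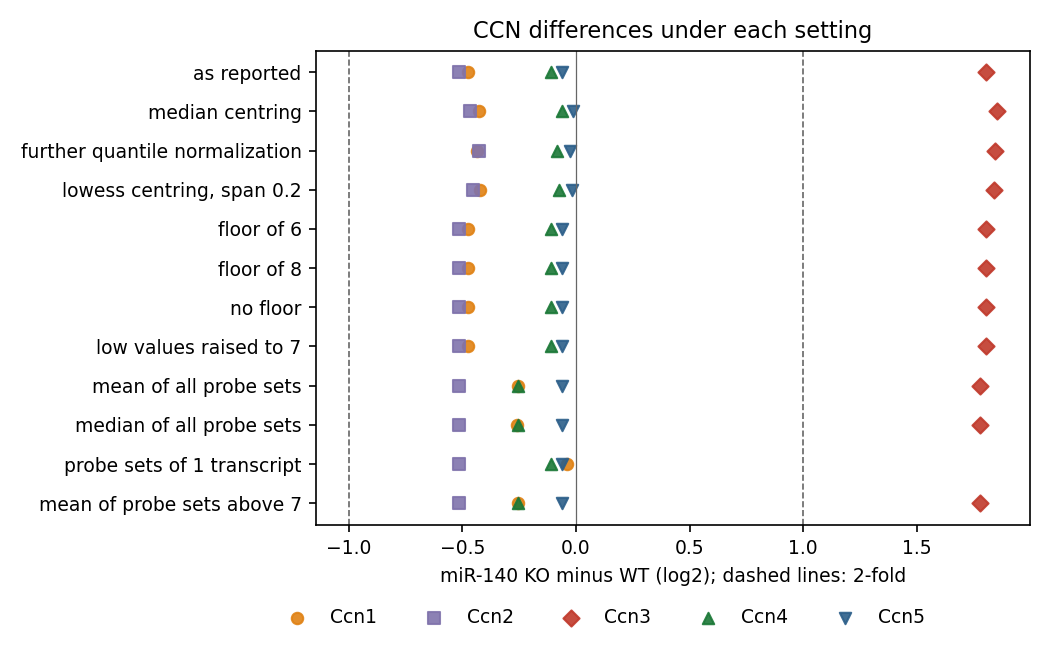
The difference of each CCN gene, miR-140 KO minus WT on the log2 scale, is plotted as reported and under 11 other settings of scale, floor and probe set choice, with 2-fold marked by dashed lines. Ccn3 stayed between 1.78 and 1.85 in the 10 other settings that gave it a value, while Ccn1 moved to -0.039 with probe sets of 1 transcript. The floor settings could not change any of these genes, whose signals all lay above the floors used. Nor could probe set choice change Ccn2 or Ccn5, which have 1 probe set each.

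The promoter table held 1 of the 5 members, Ccn1, and not Ccn2, Ccn3, Ccn4 or Ccn5. Its 250 bases before the annotated start, chr3:145649986-145650235 on the minus strand (RefSeq, GRCm38.p6), are shown because Ccn1 is a YAP and TAZ target, with the searched motif that was found in capitals.
Ccn1 promoter: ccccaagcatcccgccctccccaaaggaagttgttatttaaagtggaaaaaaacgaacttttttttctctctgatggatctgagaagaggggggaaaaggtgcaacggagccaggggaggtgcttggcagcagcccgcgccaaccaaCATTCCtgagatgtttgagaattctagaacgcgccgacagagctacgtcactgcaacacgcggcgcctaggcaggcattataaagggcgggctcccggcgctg
The capitals are 1 match to the TEAD motif GGAATG, on the opposite strand, from 103 to 98 bases before the start. Such a match occurred in 12.6% of the 32851 promoter windows of the same length. The SMAD motif CAGACA (17.1% of windows), the TCF motif CTTTGAT (3.21%) and the CArG box, the motif of serum response factor (1.47%), were searched on both strands and were not in this window.

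Genes that act with the CCN proteins were described from lists chosen for this purpose, and some genes stand in several lists. Cell-surface receptors of CCN proteins were mixed, with 7 of 12 compared genes higher and 5 lower in the miR-140 KO array. The share lower was 41.7%, against 59.2% of all genes, and the median was 0.07, against -0.05 over all genes. Notch1, a receptor that Ccn3 binds, was the 1 member past 2-fold. It read 6.61 in the miR-140 KO array and 7.71 in the WT array, a difference of -1.10. Notch1 passed the floor through the WT array alone, so its direction follows from the filter. The difference shrinks to -0.71, short of 2-fold, when low values are raised to the floor. It is -0.61 when its 2 probe sets, of which 1 lay above the floor, are averaged. The heparan sulphate proteoglycan Sdc4 differed by -0.47 and the receptor Fgfr2 by -0.36, but each has another probe set above the floor with the opposite sign (0.11 and 0.16). Igf2r, which Ccn2 binds, differed by 0.33. Of the integrins listed, Itgb3, Itgam, Itgb2, Itga2 and Itgb8 stayed below the floor.

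Matrix and growth factor partners of the family were higher for 4 and lower for 8 of 12 genes (66.7% lower, against 59.2% of all genes). Their median was -0.17. Acan, the aggrecan core protein that binds Ccn2, read 7.99 in the miR-140 KO array and 12.02 in the WT array (-4.03). The decoy receptor Tnfrsf11b, osteoprotegerin, differed by -1.35, but its other probe set differed by -0.70, short of 2-fold. A pair of growth factors went the other way. Igf1 read 10.33 in the miR-140 KO array and 9.03 in the WT array, a difference of 1.29, and its 4 probe sets ran from 0.84 to 1.39. Bmp2 read 9.60 in the miR-140 KO array and 8.70 in the WT array, a difference of 0.90.

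The regulators and other targets of pathways known to drive Ccn1 and Ccn2 were set beside them. Of 16 other YAP and TAZ target genes compared, 12 were lower and 4 higher in the miR-140 KO array (75% lower, against 59.2% of all genes), with a median of -0.12 and 1 gene, Tgfb2, past 2-fold at -1.18. Crim1 (-0.61) and Fjx1 (-0.57) were also lower. Nt5e differed by -0.84, but another of its probe sets differed by 0.19. Ankrd1, a widely used YAP target, was below the floor. The YAP and TAZ inputs were higher for 6 and lower for 8 of 14 genes (57.1% lower, near the 59.2% of all genes). Their median was -0.13 (0.0040 when probe sets were averaged). Mob1b stood at 0.54, Sav1 at -0.44, Tead1 at -0.35 and Vgll4 at -0.34, and none passed 2-fold.

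Serum response factor and its MRTF partners, with their other targets, had 10 of 13 genes lower (76.9%, against 59.2% of all genes) and a median of -0.23. It shrank to -0.055 when every probe set of a gene was averaged. Fos stood at -0.54, Acta2 at -0.46, Junb at -0.39 and Tpm1, a tropomyosin, at 0.37, and none passed 2-fold by its brightest probe set. Vcl, counted as lower at -0.20, has another probe set above the floor that was more than 2-fold higher (1.17). In the TGF-beta list, 6 of 19 genes were higher and 12 lower (63.2% lower, near the 59.2% of all genes). Its median of -0.06 turned to 0.074 when probe sets were averaged. Tgfbi, a TGF-beta induced matrix protein, differed by 1.55 and Pmepa1 by 0.68, whereas the periostin gene Postn differed by -1.26 and Tgfb2 by -1.18. The other TGF-beta targets thus did not all share the direction of Ccn2. The Wnt list gave no direction: without a floor, 7 of its 15 measured genes were higher, 7 lower and 1 equal, with a median of 0. Of the 8 genes compared, 3 (Tnfrsf19, Nkd1 and Tcf7l2, at -0.43, -0.37 and -0.22) passed the floor through the WT array alone, so their lower signal in the miR-140 KO array follows from the filter. Tcf7l1, above the floor in both arrays, stood at -0.28.

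Matricellular proteins outside the family were split, with 6 of 12 higher, 6 lower and a median of 0.01 that turned to -0.074 with a floor of 8. Smoc2 (-1.82), Comp (-1.67) and Postn (-1.26) were more than 2-fold lower, and the thrombospondin gene Thbs2 stood at 0.61.

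**Figure D4:**
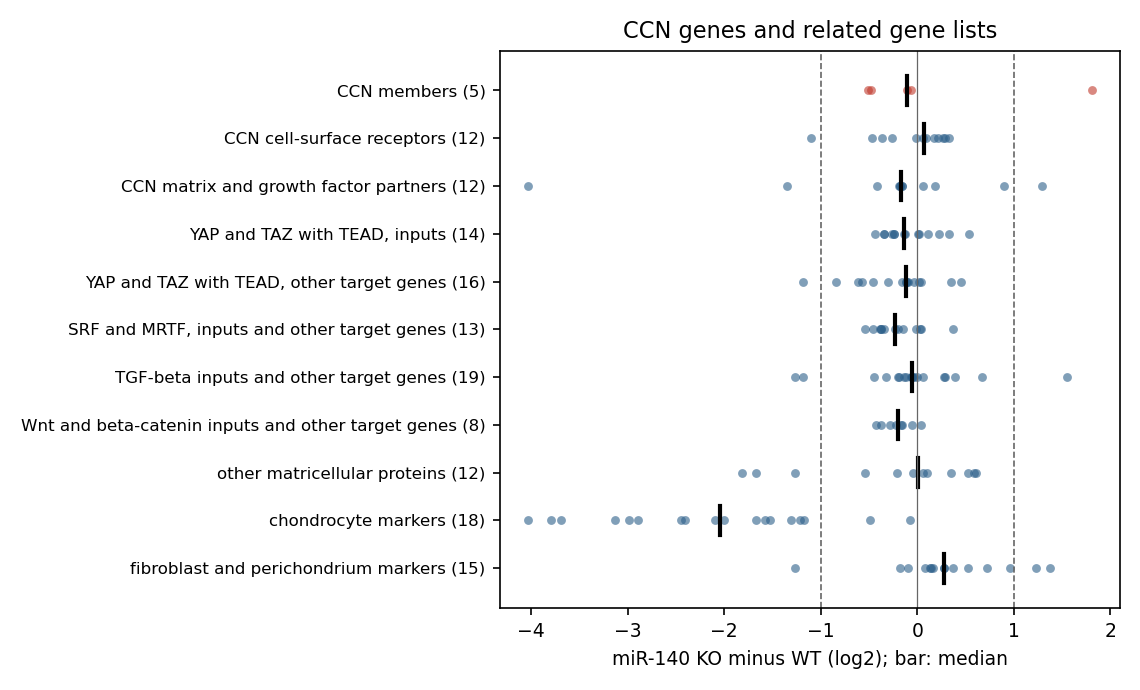
Each point is a gene compared, placed by its difference, miR-140 KO minus WT on the log2 scale. Rows are gene lists with the number of genes compared in brackets, black bars are medians and dashed lines mark 2-fold. The CCN row has 4 genes between -0.51 and -0.06 and Ccn3 at 1.81, while chondrocyte markers have a median of -2.05 and fibroblast and perichondrium markers one of 0.27.

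Further marker lists covered other cells that cultures from ribs may contain. Of 4 osteoblast markers compared, 3 were lower and the median was -0.51, with Tnfrsf11b (-1.35) and Omd (-0.90) farthest from 0. The other Tnfrsf11b probe set differed by -0.70. Col1a1 stood at 0.28 and Ifitm5 at -0.11, and Sp7, Ibsp, Dmp1 and Phex were below the floor. Ifitm5 read 6.92 in the miR-140 KO array and 7.03 in the WT array, so its direction follows from the filter. Hypertrophic chondrocyte markers had 3 genes compared with a median of -0.13: Mmp13 at 0.73, Pth1r at -0.13 and Col10a1 at -1.72, whose miR-140 KO signal of 5.69 lies under the floor. Adipocyte markers were split, 2 of 4 genes being higher, with a median of 0.16, with Lpl at 1.11 and Adipoq, Cd36 and Lep below the floor.

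Smooth muscle and pericyte markers had a median of 0.01, which was -0.19 with a floor of 8, with 3 of 5 genes above 0, while Myh11, Cnn1, Rgs5, Mcam and Notch3 were below the floor. Macrophage and leukocyte markers also had 3 of 5 higher and a median of 0.01, with Ptprc, Itgam, Lyz2, Fcer1g and Tyrobp below the floor. Adgre1 (-0.19) passed the floor through the WT array alone. Endothelial markers had 2 genes compared, both lower (median -0.17), and 8 of 10 below the floor, Pecam1 and Cdh5 among them. Of the genes compared, Kdr read 6.94 in the miR-140 KO array and 7.005 in the WT array, so its direction follows from the filter. Eng (-0.28) was above the floor in both arrays. Of the skeletal muscle markers, Des (0.14) was compared and the other 7 were below the floor.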

How the data were processed

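The deposited values are log2 signals that the authors made with RMA (background correction, normalization between arrays and summary over probes), per the labels' design text. Affymetrix Expression Console 1.1 was used, per the submitters' processing notes. The log2 scale was read from the values (3.24 to 14.2). The number of arrays limits the precision. Gene symbols came from the platform annotation: of the probe sets other than 64 controls, 34945 had 1 symbol, 932 several and 9160 none listed. Entrez identifiers matched RefSeq (GRCm38.p6) for 34741, and no symbol changed. Because no build is named for the array, no gene coordinates are given, and only the RefSeq sequences carry them.

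Differences, counts and ranks were computed with Python 3.11.15 and pandas 2.3.3, and the script that counts genes past 2-fold was tested on simulated arrays with known changes, which says nothing of chance differences between cultures. The members and lists were chosen with earlier results of these data known. Named genes are up to 4 per list with the largest differences, and the 3 nearest to each member in difference among genes of like signal without predicted or clone symbols. List members that are singled out for being below the floor were named after their values were seen. Alternatives covered scale, floor, threshold and probe set choice.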

Additional observations from a re-analysis of the deposited data

How the results depend on the processing

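With 1 array per group, a setting was said to move a difference or median when it shifted by more than the spread among probe sets of a gene (0.27). The difference of Ccn3 lay between 1.78 and 1.85 in 10 settings, and probe sets of 1 transcript gave it no value. Ccn2 lay between -0.51 and -0.43, Ccn4 between -0.25 and -0.06 and Ccn5 between -0.06 and -0.01 in 11 settings each. Ccn2 and Ccn5 have 1 probe set each and lie above every floor used, so only the settings of scale could change them. Ccn1 averaged -0.26 over its probe sets and gave -0.039 with probe sets of 1 transcript, which keeps 1457823_at (-0.039). Taken after seeing the data, its probe set 1442340_x_at gave -0.074 and Ccn4's 1448594_at gave -0.40.

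At 1.5-fold, 154 genes were higher and 352 lower, against 47 and 121 at 2-fold, and 590 probe sets were higher and 568 lower, against 160 and 191. The other settings gave 40 to 56 genes higher and 90 to 130 lower, and leaving out genes of X and Y, added after the data were seen, gave 45 and 113. List medians moved for osteoblast markers to -0.11 (floor of 6), -0.90 (floor of 8) and -0.12 (no floor), for hypertrophic markers to 0.30 and leukocyte markers to 0.42 (floor of 8), and for adipocyte markers to 0.51 (floor of 6), since each floor keeps other genes. The YAP and TAZ target, SRF, partner and receptor medians kept their sign in 11 settings, though SRF shrank to -0.055. The sign was lost in 3 settings for smooth muscle markers, in 2 each for the TGF-beta and other matricellular lists, and in 1 each for YAP and TAZ inputs, Wnt, hypertrophic and skeletal muscle lists. No paired analysis was possible because each group has 1 array, which also leaves no array to leave out.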

Other observations

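The genes next to each member on its chromosome were looked up in the RefSeq gene order after the data were seen, taking 3 named protein-coding genes on either side. Beside Ccn3 on chromosome 15, Tnfrsf11b, the osteoprotegerin gene, read 10.48 in the miR-140 KO array and 11.83 in the WT array. Its difference of -1.35, or -0.70 with its other probe set, was in the opposite direction to Ccn3. Taf2 stood at -0.11, and Colec10, Mal2 and Dscc1 were below the floor in both arrays. Beside Ccn2 on chromosome 10, Moxd1, a monooxygenase-like gene, read 8.77 in the miR-140 KO array and 10.16 in the WT array (-1.39), while Stx7 stood at 0.11 and Med23 at -0.08. Beside Ccn1, Ddah1, which degrades methylated arginines, differed by -0.44, Bcl10 by -0.07, Znhit6 by 0.17 and Syde2 by 0.17. Beside Ccn4, Ndrg1 differed by -0.60, Zfat by -0.44 and Phf20l1 by 0.04. Zfat, at 6.67 in the miR-140 KO array and 7.11 in the WT array, passed the floor through the WT array alone. Beside Ccn5, Pkig differed by 0.24, Serinc3 by -0.15 and Ywhab by -0.02.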
